A study of Mus musculus with 4 samples.

Results

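The granzyme cluster and perforin were described here by their DNase I accessible sites, from peaks whose midpoint lay in chr14:56650000-56950000 or in chr10:60680000-60820000 of the mouse build mm9. The first interval, of 300 kb, was chosen for the granzyme genes around Gzmb, which was placed at about 56.878 to 56.881 Mb. The second, of 140 kb, was chosen for Prf1, placed at about 60.76 Mb. Both gene positions came with the choice of intervals. Neither they nor the granzyme genes covered were checked against an mm9 annotation. The intervals held 48 of the 84735 deposited peaks. Merged wherever they overlapped, these formed 22 of the 38986 accessible regions of the series, 12 in the granzyme interval and 10 in the Prf1 interval.

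Granzymes are serine proteases that cytotoxic lymphocytes store in granules and release onto target cells. Perforin, the product of Prf1, forms pores in the target membrane through which granzymes enter. Granzyme B, the product of Gzmb, cleaves caspases and other substrates and drives apoptosis of the target. Naive CD8+ T cells hold little of either protein, and activation or cytokines such as IL-15 are known to raise both. Gzmc encodes granzyme C, a related protease of activated cytotoxic T cells.

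Splenic naive CD8+ T cells were sorted as GFP+, TCRbeta+, CD62L high and CD44 low to medium, and were cultured for 72 h with IL-7 and IL-15 before lysis and DNase I treatment. The double knockout cells (DKO, 2 libraries) carried floxed alleles of Tcf1 and Lef1, transcription factors of the T lineage, and the labels give their genotype as Tcf1-/-Lef1-/-. The wild-type cells (WT, 2 libraries) carried unfloxed alleles of both. All mice carried hCD2-Cre, which is active in lymphocytes, and a Rosa26 reporter that switches on GFP after Cre has acted, so both genotypes were sorted as Cre-exposed cells. The labels give no age, sex or number of animals. Nor do they say whether each replicate was its own animal, and the p-values below measure the spread between libraries, which may be technical.

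DKO replicates 1 and 2 had 34788 and 21353 peaks, against 17521 and 11073 peaks in WT replicates 1 and 2. The deposited fold enrichment compares the fragments stacked at a peak's summit with the local background, and each list starts at a fold of just over 4. Its median was 8.50 and 7.24 in the DKO lists and 6.43 and 6.13 in the WT lists, so a fold is read here within its own list. Peaks on chromosome Y numbered 55 and 57 in the DKO lists and 0 in both WT lists. Loss of the factors and a sex difference therefore cannot be told apart in any value below. The labelled cell type and the deleted genes were not checked against their loci, because no mm9 annotation was used here.

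The promoters of the 3 genes are shown because sites were called at the 5′ end of Gzmb and near Prf1, and Gzmc is shown for comparison. The sequences are from RefSeq, build GRCm38.p6, and run from 250 bases before to 50 bases after the gene's start, with no position carried over to mm9. Gzmb is at chr14:56262285-56262584 and Gzmc at chr14:56234608-56234907, both on the minus strand, and Prf1 is at chr10:61297586-61297885 on the plus strand of that build. Capitals mark matches on either strand to CTTTGA or CTTTGT (letters bound by Tcf and Lef factors), TTCNNNGAA (STAT), TGTGGT (Runx) or TCACACC (T-box).
Gzmb: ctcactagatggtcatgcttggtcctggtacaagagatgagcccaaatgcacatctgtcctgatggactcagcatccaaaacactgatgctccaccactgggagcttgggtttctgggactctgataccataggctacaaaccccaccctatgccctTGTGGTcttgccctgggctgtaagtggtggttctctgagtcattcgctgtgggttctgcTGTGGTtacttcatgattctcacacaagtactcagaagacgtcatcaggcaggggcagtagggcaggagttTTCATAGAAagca
Gzmc: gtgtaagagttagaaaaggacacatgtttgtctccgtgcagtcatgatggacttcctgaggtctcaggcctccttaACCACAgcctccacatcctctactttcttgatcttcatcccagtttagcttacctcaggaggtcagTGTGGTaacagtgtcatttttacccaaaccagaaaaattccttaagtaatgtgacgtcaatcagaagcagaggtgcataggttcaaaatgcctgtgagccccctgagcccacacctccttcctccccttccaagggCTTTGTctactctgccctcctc
Prf1: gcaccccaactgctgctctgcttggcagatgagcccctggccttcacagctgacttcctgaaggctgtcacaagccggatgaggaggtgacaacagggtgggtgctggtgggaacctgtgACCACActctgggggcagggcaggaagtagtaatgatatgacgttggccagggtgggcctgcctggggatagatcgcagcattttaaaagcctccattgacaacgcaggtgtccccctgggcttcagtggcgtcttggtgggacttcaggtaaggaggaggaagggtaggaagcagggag

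The Gzmb promoter held the Runx letters at 2 places, starting 93 and 34 bases before the start, and the STAT letters at 1 place, starting 38 bases into the transcript. None of these matches overlapped another. The Gzmc promoter held the Runx letters at 2 places and CTTTGT at 1 place, 29 bases into the transcript. The Prf1 promoter held the Runx letters once, 130 bases before the start. Neither CTTTGA nor CTTTGT was found in the Gzmb or Prf1 window. Of 32851 mouse promoters of 300 bases in the table, 16.8% held the Runx letters, 8.30% the STAT letters, 3.98% the T-box letters, 16.0% CTTTGA and 18.7% CTTTGT. The T-box letters were not found in the Gzmb, Gzmc or Prf1 window. The ETS core GGAA, which was not capitalised, was in 96.0% of promoters, at 5 places in Prf1, at 4 in Gzmc and at 0 in Gzmb. A match is a description of letters and not of binding.

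At the Gzmb promoter end, both DKO libraries and WT replicate 1 had a peak and WT replicate 2 had none listed. RefSeq places Gzmb on the minus strand, so its 5′ end is the upper one, given to the nearest kb as 56.881 Mb. The merged region, chr14:56881044-56881352, is 309 bp wide and covers that position to within its rounding. Its fold enrichment was 15.8 and 12.4 in DKO replicates 1 and 2 and 8.63 in WT replicate 1. The fragments stacked at the summit, solved from the deposited fold and p-value, were 52 and 31 in the DKO libraries and 22 in WT replicate 1. The background there was 2.35 and 1.58 fragments in the DKO libraries and 1.66 in WT replicate 1. The summits lay within 39 bp of each other. Within its own list the Gzmb site stood above 90.9% and 90.4% of DKO peaks by fold and above 79.6% of the peaks of WT replicate 1. It was the strongest site of the granzyme interval in DKO replicate 2 and the second strongest in DKO replicate 1, against the third strongest of 6 in WT replicate 1. Standings in lists of different length show no change, and the WT value rests on 1 library.

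**Figure D1:**
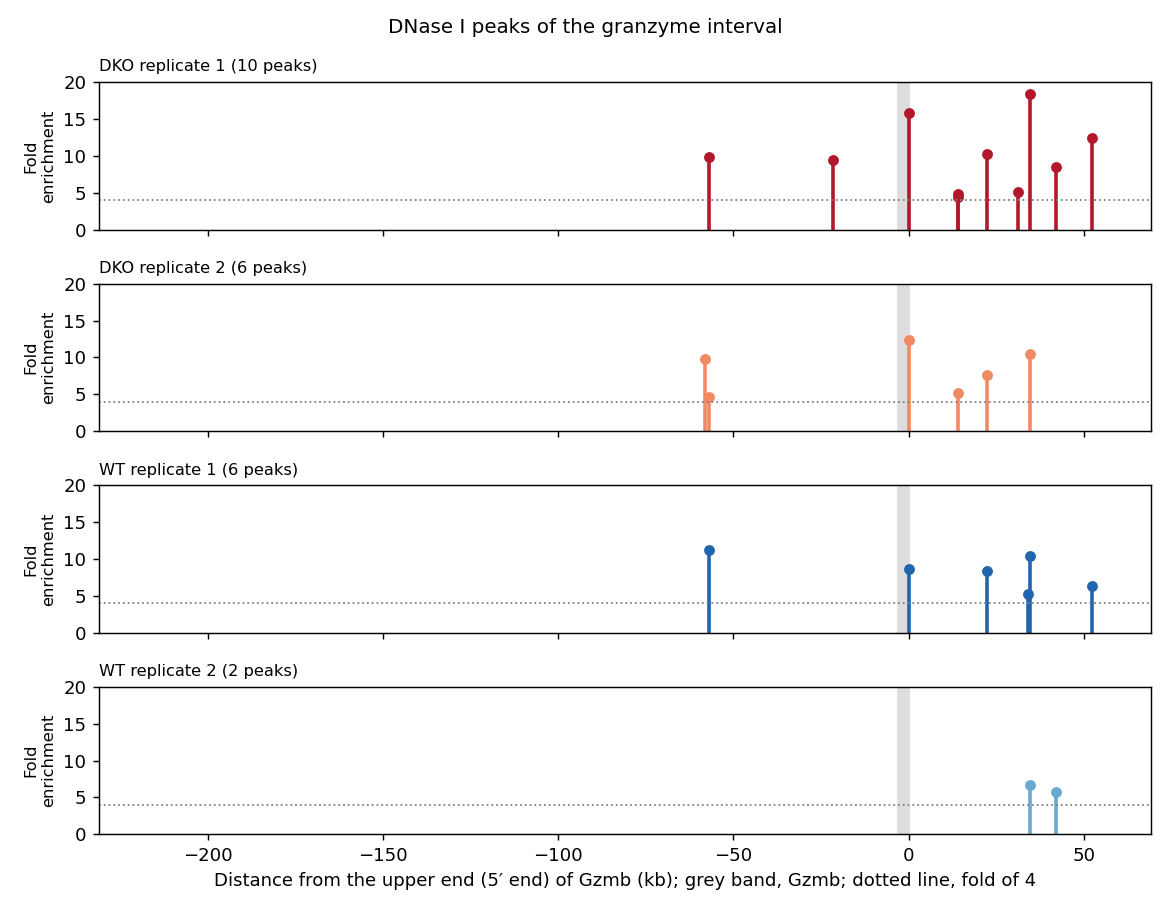
Fold enrichment (vertical axis) of each peak of the granzyme interval by distance in kb from the 5′ end of Gzmb, one panel per library, DKO above WT. The grey band is Gzmb and the dotted line is a fold of 4, where the lists start. Most stems stand at or to the right of Gzmb, and the 173 kb at the left of the interval hold none in any library.

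Most granzyme sites lay on the upstream side of Gzmb. RefSeq gives the order of protein-coding genes as Mcpt8, Ctsg, Gzme, Gzmd, Gzmg, Gzmn, Gzmf, Gzmc, Gzmb and then Atp12a, with the granzymes all on the minus strand. Of the 12 regions, 8 lay above the Gzmb site, on the side of Atp12a, and 3 lay below, on the side of Gzmc and the other granzymes. The lowest region started at 56822965, so the lower 173 kb of the interval had 0 peaks in all 4 lists. A site at the Gzmc promoter could not be assigned, because its mm9 position was not used here. Calls over near-identical gene copies are uncertain, because the treatment of reads that align to several places is not given. Aligned end to end, the promoter windows of Gzmd and Gzme were 93.4% identical, and those of Gzmc were 74.6 to 83.8% identical with Gzmd, Gzme, Gzmf and Gzmg. The Gzmb window had 46.8 to 52.7% identity with the other granzymes, close to the 44.8 to 50.6% between Prf1 and the granzymes, which are unrelated genes. Whether copy similarity bears on the missing calls was not tested.

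The site 34.7 kb upstream of Gzmb was the granzyme region called in all 4 libraries. It lies at chr14:56915625-56915860. Its fold was 18.4 and 10.5 in DKO replicates 1 and 2, against 10.4 and 6.75 in WT replicates 1 and 2. The summit pileups were 57 and 24 fragments in the DKO libraries and 34 and 18 in the WT libraries, so the genotypes overlapped in unscaled pileup. By fold both DKO values lay above both WT values, at 10.5 against 10.4 at the closest, in lists whose median folds differ. It had the highest fold of the interval in DKO replicate 1 and WT replicate 2 and the second highest in the other libraries. The 4 summits lay within 17 bp. Beside it, 452 bp lower, WT replicate 1 alone had a peak at chr14:56915027-56915172 with a fold of 5.27.

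The site 22.3 kb upstream of Gzmb, chr14:56903197-56903472, was called in both DKO libraries and in WT replicate 1. Its fold was 10.2 and 7.56 in the DKO libraries and 8.37 in WT replicate 1. The pileup in WT replicate 1, 24 fragments, lay between the DKO pileups of 32 and 19. Its summits agreed within 16 bp.

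A region 57.0 kb below the 5′ end of Gzmb, on the side of Gzmc, differed in order between libraries. It lies at chr14:56823904-56824110 and was called in both DKO libraries and WT replicate 1. Its fold was 9.87 and 4.66 in DKO replicates 1 and 2, against 11.2 in WT replicate 1. It ranked 5th of 10 and 6th of 6 sites of the interval in the DKO libraries, against 1st of 6 in WT replicate 1. Its pileup was 21 and 9 fragments in the DKO libraries and 28 in WT replicate 1, and its summits were spread over 99 bp, the widest spread among the regions of both intervals. DKO replicate 2 had its stronger peak 800 bp lower, at chr14:56822965-56823103, with a fold of 9.78 and no call in the other lists.

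The DKO-only region of the granzyme interval, meaning called in both DKO lists and in neither WT list, was a weak one. It lies 14 kb upstream of Gzmb at chr14:56894914-56895059. Its fold was 4.41 and 5.12 in DKO replicates 1 and 2, above only 4.07% and 16.4% of the peaks of those lists. Its pileups were 9 and 10 fragments, and its 2 summits lay 71 bp apart. The smallest pileup listed anywhere was 8 and 8 in the DKO lists and 10 and 9 in the WT lists, so a site of this size stood near the limit of listing in every library. A second weak peak, chr14:56895147-56895284 with a fold of 4.86, followed 87 bp higher in DKO replicate 1 alone.

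The remaining granzyme regions were each called in 1 library or in 1 of each genotype. The region 42.1 kb upstream of Gzmb, chr14:56923045-56923247, had a fold of 8.52 in DKO replicate 1 and 5.68 in WT replicate 2. The region 52.4 kb upstream, chr14:56933299-56933569, had a fold of 12.5 in DKO replicate 1 and 6.40 in WT replicate 1, with summits within 7 bp. DKO replicate 1 alone had peaks 21.6 kb below the 5′ end of Gzmb, with a fold of 9.42, and 31.2 kb above it, with a fold of 5.08.

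Near Prf1, a site within the rounding of its position was called in all 4 libraries. RefSeq places Prf1 on the plus strand, with Adamts14, a protease gene of the extracellular matrix, on its lower side and Pald1 on its upper side. The position of 60.76 Mb is rounded to 10 kb, so 5 kb either way, and 3 regions lie within that rounding. The region chr10:60760279-60760562 had a fold of 12.5 and 8.78 in DKO replicates 1 and 2, against 5.59 and 7.36 in WT replicates 1 and 2. The summit pileups were 44 and 23 fragments in the DKO libraries and 18 and 21 in the WT libraries, and the 4 summits lay within 16 bp. Both DKO pileups were above both WT pileups, by 2 fragments at the closest, which is less than the gap between the DKO replicates. Pileups are not scaled for depth. The lowest background of a list, a sign of depth, was higher in both WT libraries than in both DKO libraries. Whether depth bears on the pileups was not tested. With 2 libraries per genotype an exact two-sided permutation test cannot go below 0.33, and no single site was tested across lists. The site ranked 4th of 10 and 2nd of 5 in the DKO libraries and 5th of 5 and 2nd of 4 in the WT libraries.

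**Figure D2:**
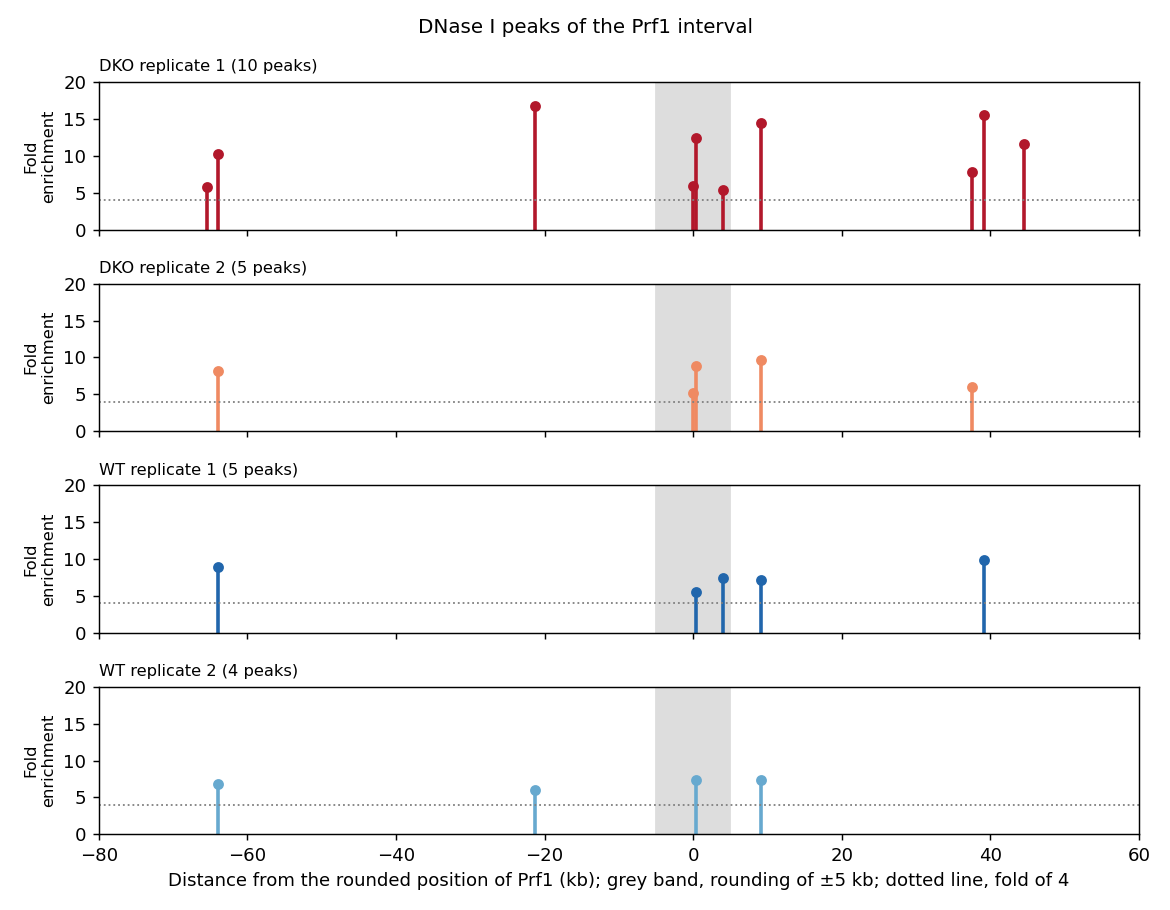
Fold enrichment (vertical axis) of each peak of the Prf1 interval by distance in kb from the rounded position of Prf1, one panel per library, DKO above WT. The grey band is the 5 kb rounding on either side and the dotted line is a fold of 4. The sites at -63.9, 0.42 and 9.15 kb appear in every panel, while DKO replicate 1 alone fills all 10 positions.

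Just below it, separated by 209 bp, lay a DKO-only region at chr10:60759901-60760069. Its fold was 5.92 and 5.20 in DKO replicates 1 and 2, above 23.4% and 18.7% of the peaks of those lists. The pileups there were 20 and 13 fragments, and the 2 summits lay 71 bp apart. Further up, at 3.99 kb, chr10:60763910-60764076 was called in 1 library of each genotype. Its fold was 5.32 in DKO replicate 1 and 7.47 in WT replicate 1, with pileups of 20 and 27 fragments and summits 2 bp apart. It stood above 15.2% of the peaks of DKO replicate 1 and above 66.4% of those of WT replicate 1.

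The site 9.15 kb above the rounded position of Prf1 was also called in all 4 libraries. It lies at chr10:60768982-60769325. Its fold was 14.5 and 9.67 in DKO replicates 1 and 2, against 7.20 and 7.39 in WT replicates 1 and 2. The pileups were 44 and 24 fragments in the DKO libraries and 21 and 21 in the WT libraries. As at the region 0.42 kb above the rounded position, the unscaled DKO pileups lay above the WT pileups, DKO replicate 2 by 3 fragments. Here too, the lists with the lower pileups were those with the higher lowest background. It was the strongest site of the interval in DKO replicate 2 and WT replicate 2.

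The third Prf1 region called in all 4 libraries lay 63.9 kb below the rounded position of Prf1, at chr10:60695911-60696325, on the side of Adamts14. Its fold was 10.2 and 8.17 in DKO replicates 1 and 2, against 8.97 and 6.76 in WT replicates 1 and 2. Here the pileups of the genotypes overlapped, at 27 and 21 fragments in the DKO libraries and 31 and 22 in the WT libraries. WT replicate 1 had a wide peak of 415 bp, and the summits were spread over 83 bp.

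**Figure D3:**
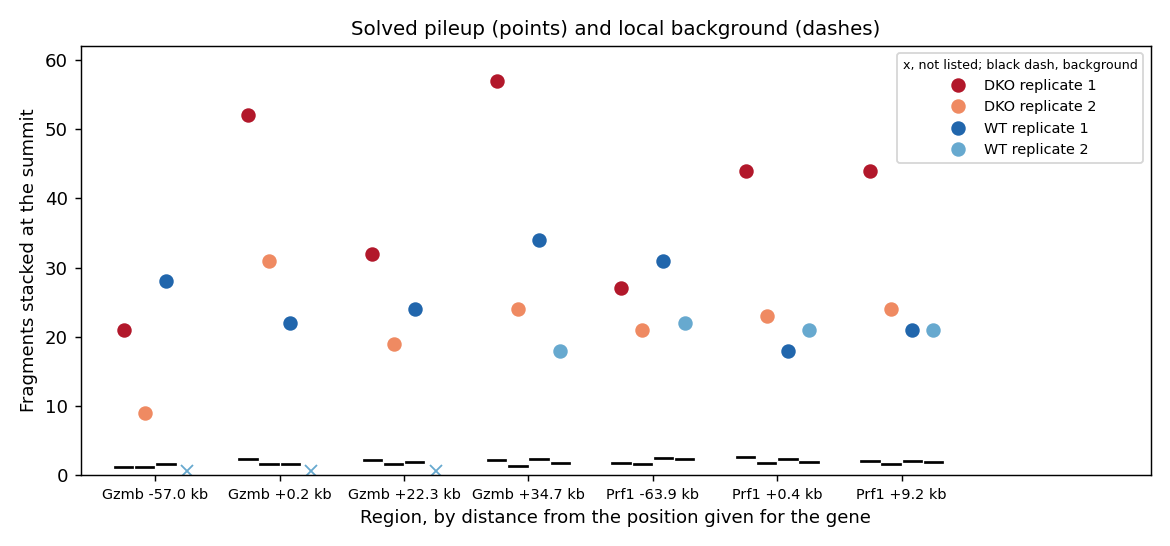
Fragments stacked at the summit (points) and local background (black dashes) for the 7 regions called in at least 3 libraries, DKO libraries left of WT libraries, with crosses for libraries that list no peak. The points of DKO replicate 1 reach 57 fragments, while the other libraries stay at 34 or fewer.

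The last DKO-only region lay 37.5 kb above the rounded position of Prf1, on the side of Pald1, at chr10:60797383-60797550. Its fold was 7.80 and 6.0 in DKO replicates 1 and 2, with pileups of 21 and 16 fragments and summits 23 bp apart. At 1412 bp above it, chr10:60798963-60799195 had a fold of 15.5 in DKO replicate 1 and 9.81 in WT replicate 1, where it was the strongest site of the interval. The region 21.3 kb below the rounded position, chr10:60738677-60738803, had a fold of 16.8 in DKO replicate 1, the highest of that library's Prf1 sites. In WT replicate 2 its fold was 6.01, the lowest of 4. DKO replicate 1 alone had peaks 65.4 kb below the rounded position, with a fold of 5.82, and 44.5 kb above it, with a fold of 11.6.

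Calls were merged when they overlapped, so summits of 1 region could not lie far apart, and a shifted call forms a region of its own. In the 15 regions called in at least 2 libraries the summits lay 2 to 99 bp apart, with a median of 23 bp, and in 11 of them they lay within 40 bp. The 7 regions called in 1 library had folds of 4.86 to 11.6. They made up 31.8% of the 22 regions, against 41.7% of all regions of the series. Of these 7, 5 were from DKO replicate 1, the longest list. Regions of the series called in 1 library were not split by library, so this count has no share to stand beside.

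**Figure D4:**
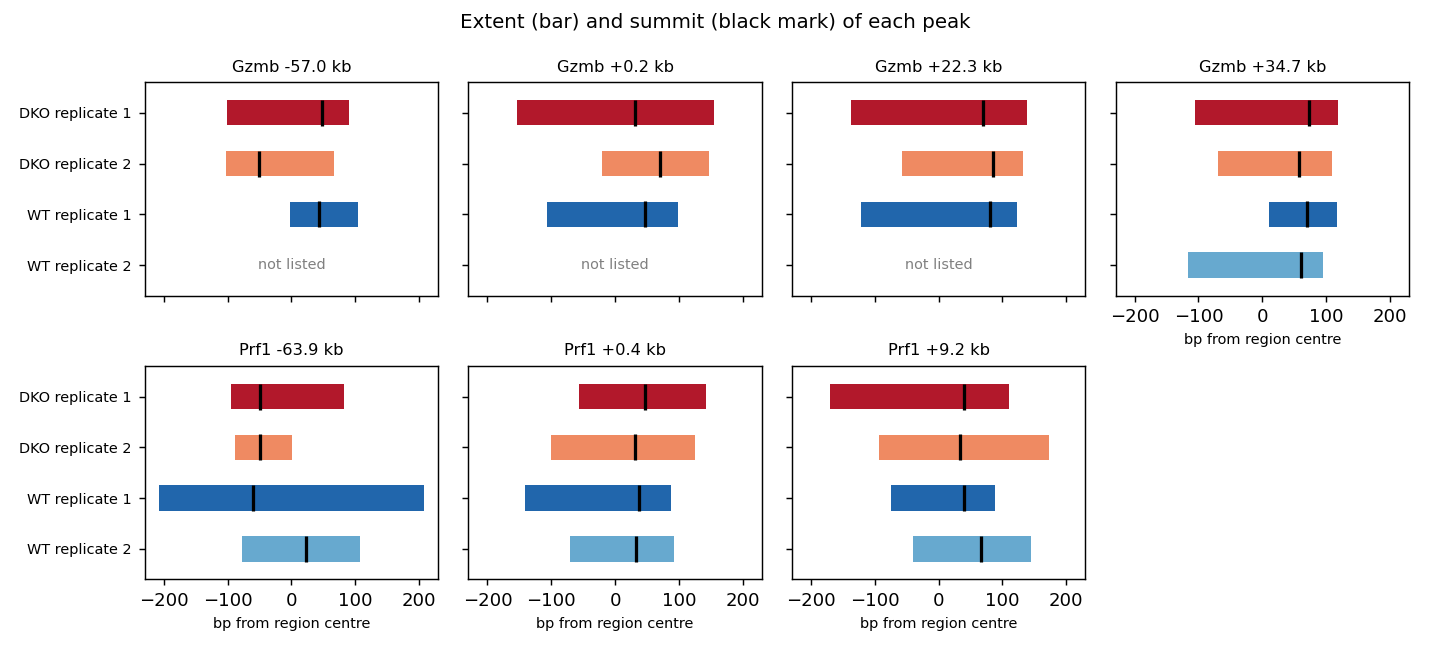
Extent (bar) and summit (black mark) of each peak, in bp from the region's centre, for the 7 regions called in at least 3 libraries, with DKO rows above WT rows. Bars differ in length, while the summits mostly line up, within 16 to 39 bp in 5 of the 7 regions and within 99 and 83 bp at Gzmb -57.0 kb and Prf1 -63.9 kb.

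Over the full lists the mean peak number was higher in DKO than in WT libraries in both intervals, as it was over the whole series. With all lists held to the length of the shortest, the log2 difference turned round to -0.292 in the Prf1 interval and was 0.076 in the granzyme interval. At that length the granzyme interval held 3 and 4 peaks in the DKO libraries and 5 and 2 in the WT libraries. Its mean counts were then equal. Over the full lists the granzyme interval held 10 and 6 peaks in DKO replicates 1 and 2, against 6 and 2 in WT replicates 1 and 2. The means were 8.0 ± 2.83 in DKO and 4.0 ± 2.83 in WT (SD, n = 2 each), a ratio of 2.0. The Prf1 interval held 10 and 5 peaks in the DKO libraries, against 5 and 4 in the WT libraries. The means were 7.5 ± 3.54 in DKO and 4.5 ± 0.707 in WT (SD, n = 2 each), a ratio of 1.67, beside a ratio of 1.96 over all peaks. On the scale log2(peaks + 1) the DKO minus WT difference was 0.94 for the granzyme interval and 0.57 for the Prf1 interval, against 0.97 for the series. The exact two-sided permutation p was 0.67 for each interval, in a design whose smallest possible p is 0.33, so the test cannot separate the genotypes. In each interval the lower DKO count equalled the higher WT count.

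As a share of its own list, each library had about as many peaks in the intervals as the others. The share was 0.0575% and 0.0515% in DKO replicates 1 and 2, against 0.0628% and 0.0542% in WT replicates 1 and 2. The exact 95% binomial (Clopper-Pearson) intervals were 0.0351 to 0.0888% and 0.0257 to 0.0922% for the DKO libraries, and 0.0313 to 0.112% and 0.0199 to 0.118% for the WT libraries. They all overlapped, and they cover counting error only.

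The shares of DKO-only regions and of regions called in all 4 libraries stood near those of the series. DKO-only regions were 3 of 22 (13.6%), against 14.3% of all regions. Regions called in all 4 libraries were 4 of 22 (18.2%), against 20.7%. WT-only regions, with a peak in both WT lists and in neither DKO list, were 0 of 22, against 0.631%. A count of 0 here allows a share of up to about 13.6%. That limit is 3 divided by the number of regions, an approximate upper 95% limit and not an exact one. Regions called in 2 or 3 libraries of both genotypes were 8 of 22 (36.4%), against 22.6% of all regions, the widest gap among these classes. Of the 11 regions that WT replicate 1 called, 10 (90.9%) were also called in a DKO library, against 89.0% over the series. All 6 regions of WT replicate 2 were also called in a DKO library, against 92.5% over the series. Of the 20 and 11 regions called in DKO replicates 1 and 2, 12 (60.0%) and 7 (63.6%) were also called in a WT library, against 48.1% and 65.4% over the series. Those 20 and 11 calls are 90.9% and 50% of the 22 regions, against 88.6% and 53.9% of all regions. The 11 and 6 calls in WT replicates 1 and 2 are 50% and 27.3%, against 44.5% and 28.2%.

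**Figure D5:**
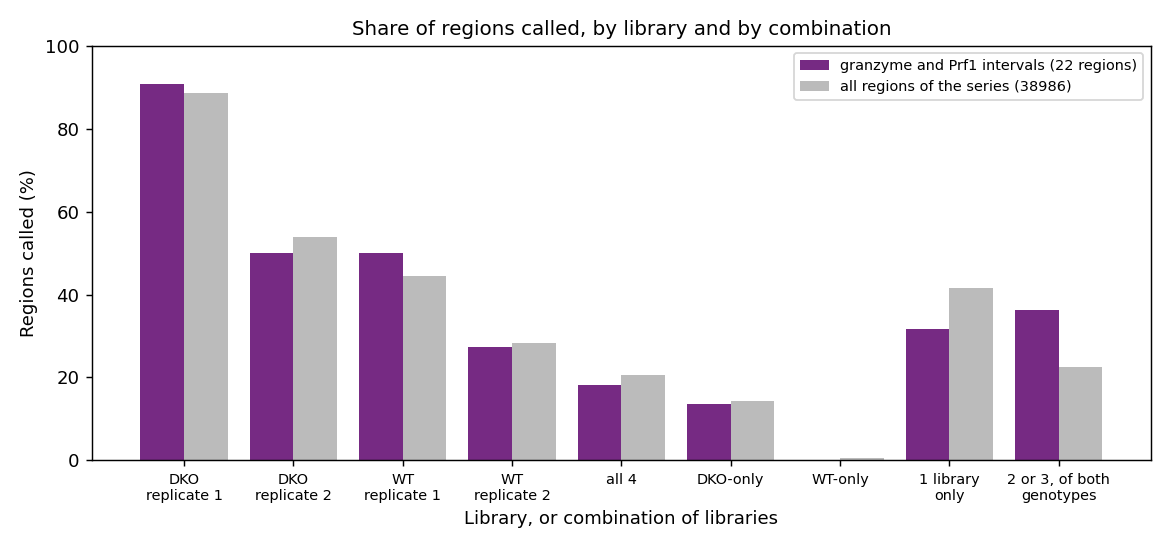
Percentage of regions called in each library and in each combination of libraries, for the 22 regions of the granzyme and Prf1 intervals (left bar of each pair) and for all 38986 regions (right bar). The paired bars are close for DKO replicate 1, at 90.9 and 88.6%, and for DKO-only regions, at 13.6 and 14.3%. They lie farthest apart for regions called in 2 or 3 libraries of both genotypes, at 36.4 and 22.6%.

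With each list held to its 11073 peaks of highest −log10 p, the intervals kept 7 and 7 peaks in DKO replicates 1 and 2 and 10 and 6 in WT replicates 1 and 2. These formed 13 regions. None of the 13 was DKO-only or WT-only, against 5.75% and 4.61% of all regions at that length. By the same approximate limit a count of 0 here allows a share of up to about 23.1%. The granzyme interval kept its region called in all 4 libraries, 34.7 kb upstream of Gzmb. The Prf1 interval kept the regions at 0.42 and 9.15 kb as called in all 4, so 3 of 13 (23.1%), beside 29.3% of all regions at this length. The Gzmb site kept its calls in both DKO libraries and WT replicate 1. All 3 DKO-only regions were removed from the lists of both DKO libraries by this cut, which lies at a −log10 p of 27.3 and 13.6 in DKO replicates 1 and 2 and of 10.8 in WT replicate 1. WT replicate 2, the shortest list, was left whole, down to 5.40.

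Strength within the lists was above the middle in all 4 libraries. The median fold of the peaks in both intervals was 10.04 and 8.17 in DKO replicates 1 and 2, against list medians of 8.50 and 7.24. It was 8.37 and 6.75 in WT replicates 1 and 2, against list medians of 6.43 and 6.13. Peaks above their list's median numbered 13 of 20 and 7 of 11 in the DKO libraries and 8 of 11 and 4 of 6 in the WT libraries. These counts are small and were not tested, and the libraries share regions, so they are not separate supports. In WT replicate 2 the median fold was 6.21 in the granzyme interval, from 2 peaks, and 7.06 in the Prf1 interval.

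At the interval ends, the regions just inside and just outside did not form one block. The highest granzyme region lay 16.6 kb inside the upper end and the next region 44.8 kb beyond it, with a fold of 6.73 and 4.58 in DKO replicates 1 and 2 and 4.87 in WT replicate 2. Below the granzyme interval the next region lay 84.7 kb beyond the end and was called in WT replicate 1 with a fold of 5.97. Beyond the Prf1 interval the nearest regions were 5.31 kb below, in WT replicate 1 with a fold of 5.45, and 12.8 kb above, in DKO replicate 2 with a fold of 5.12.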

How the data were processed

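DNase-seq libraries from 2 DKO and 2 WT samples were analysed as the peak lists the authors deposited, one per library. Per the submitters' processing notes, FastQC, Bowtie2 2.2.5 and MACS2 2.1.1 were used with mm9; settings, control library and duplicate handling are not stated there. For each peak the authors deposited a fold enrichment ratio, a −log10 p, a −log10 q and a score of 10 times the −log10 q. Depth is not given. The caller's pileup and background were solved from fold and p, for peaks with a −log10 p under 250; the pileup came out whole within 0.02 for 100% of them. Its lowest background, a sign of depth, was 1.23 and 1.15 in DKO replicates 1 and 2 and 1.50 and 1.47 in WT replicates 1 and 2.

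Starts were converted to count from 1. Peaks of all lists were merged where they overlapped by at least 1 bp, and a region belonged to an interval by its midpoint. The merging and the solving of pileups were tested on simulated data, while the midpoint rule was not. Peak numbers were compared with an exact two-sided permutation test on log2(peaks + 1). Regions given with all their values are those called in both libraries of a genotype or nearest to Gzmb or Prf1; the others were added after their values were seen. Intervals, lists and tests were chosen with earlier results of these data known. Alternatives were equal list lengths, a −log10 q of at least 5 or 10, merging within 500 bp, overlap of 50% of the shorter peak, any overlap with the interval, a pseudocount of 0.5, the replicate block and leaving out each library. Lists of further effector genes and cell type markers needed an mm9 annotation and were not used here. Python 3.11.15, pandas 2.3.3, numpy 2.4.6, scipy 1.17.1, Biopython 1.88 and matplotlib 3.10.9 were used.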

Additional observations from a re-analysis of the deposited data

How the results depend on the processing

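The log2 difference in peak number in the granzyme interval was 0.94 over the full lists. Under the 10 alternatives it ran from 0.076 at equal list lengths to 1.55 without WT replicate 1. At equal lengths DKO replicates 1 and 2 held 3 and 4 peaks there, and WT replicates 1 and 2 held 5 and 2. The mean counts were then equal, so the DKO excess was gone and 0.076 arose from the log2 scale. Any overlap left the full-list counts unchanged, and the pseudocount and the replicate block reuse them. These alternatives therefore could not change the sign. Leaving out each library gave 0.326 to 1.55 in the granzyme interval and 0.132 to 1.01 in the Prf1 interval. In the Prf1 interval the difference turned round to -0.292 at equal list lengths, by the cut to shorter DKO lists. With the replicate number as a block the differences were again 0.94 and 0.57; the labels do not say that the numbers pair the samples, and 2 pairs cannot go below a p of 0.5. The DKO-only regions of the granzyme interval went to 0 at a −log10 q of at least 5 or 10 and at equal list lengths by p or by fold, and leaving out each library gave 1 to 4. Those of the Prf1 interval went to 0 at a −log10 q of at least 10 and at both equal lengths, and to 1 with peaks merged within 500 bp; leaving out each library gave 2 to 4. Regions called in all 4 libraries went to 0 in the granzyme interval at a −log10 q of at least 10 and to 1 in the Prf1 interval at equal lengths by fold. Leaving out each library gave 1 to 4 of them in the granzyme interval, 4 being without WT replicate 2, and 3 in the Prf1 interval. Leaving out each library gave 0 to 1 WT-only regions in the granzyme interval, the 1 being a peak of WT replicate 1. Such counts cannot fall when a library is left out. A site that is missing from a list was below its thresholds and may still be accessible.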
